A study of Mus musculus with 15 samples.

Results

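The neurexins, neuroligins and leucine-rich repeat transmembrane (Lrrtm) proteins were followed here through 9 genes: Nrxn2, Nrxn3, Nlgn1, Nlgn2, Nlgn3, Lrrtm1, Lrrtm2, Lrrtm3 and Lrrtm4. They were chosen by symbol from a deposited table of read counts, in which they made up 9 of 35976 gene rows. The rule used no measured value, but the genes were picked with earlier results of these data known. All 9 had enough reads to be tested in every comparison.

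Neurexins are cell adhesion proteins of the presynaptic membrane. They bind, across the synaptic cleft, to postsynaptic partners that include the neuroligins and the Lrrtm proteins, and pairs of this kind help to organise the release site and the receptors opposite it. Nlgn2 is known mainly from inhibitory synapses, Nlgn1 and the Lrrtm proteins mainly from excitatory synapses, and Nlgn3 from both. Dopamine neurons of the ventral tegmental area (VTA) receive excitatory and inhibitory input and form release sites of their own, so both sides of these pairs can be transcribed in one nucleus.

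The study used male heterozygous DAT-Cre mice, 8 to 12 weeks old, in which Cre is made from the Slc6a3 (dopamine transporter) locus, and every group received AAV5-DIO-KASH-HA in the VTA, a Cre-dependent virus whose HA tag marks the nucleus. Lever pressing for food was trained in all mice, over 7 days, once 14 days had passed. Food-trained mice (FT) were killed after the last food session, before any catheter surgery or cocaine. Maintenance mice (MN) then took intravenous cocaine in daily 1-hour sessions, 5 at 0.3 mg/kg per infusion and 10 at 1.0 mg/kg per infusion, and Craving mice (CRV) had a further 21 days of forced abstinence in the home cage. Each library came from the pooled VTA punches of 2 mice, and different mice were used at each stage. Dopaminergic (DA) libraries held HA-positive nuclei: 4 from FT, 3 from MN and 4 from CRV mice. The 4 non-dopaminergic (nDA) libraries held HA-negative nuclei of FT mice, which takes in every nucleus without the tag, glia included. No group took saline in place of cocaine, so cocaine, catheter surgery, time and age cannot be told apart between FT and the other 2 stages. MN and CRV mice had the same cocaine sessions, and between them abstinence, time and age cannot be told apart.

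The 15 libraries held 25813697 to 59046618 counts. Slc6a3 was at 2989 ± 1053 CPM (counts scaled to library size, SD, n = 4) in FT DA and 92.8 ± 18.5 CPM (n = 4) in FT nDA, and the 11 dopamine neuron markers together ranged from 6723 to 12625 CPM against 434 to 651 CPM. The nDA libraries are labelled as neurons, yet 8 oligodendrocyte markers summed to 9238 to 22857 CPM in them and 1744 to 2765 CPM in FT DA. In each group every marker list had all of its genes above 0 in at least 1 library. Libraries also differed in how level followed the GC content of transcripts: over 8353 well-expressed genes the slope of log2 CPM was -0.0372, -0.0224 and -0.0376 per percent GC in the 3 MN DA libraries and -0.0248 in FT nDA replicate 2, and it lay between -0.0167 and 0.0322 in the other 11. The stage results below are set beside this property of the libraries, and its part in them was not tested.

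The 9 genes differ widely in base composition, and the sequences are shown because that difference ran alongside the results. The longest annotated transcript was 62.4% G and C for Nrxn2 (chr19:6418731-6544169, plus strand, GRCm38) and 47.5% for its relative Nrxn3 (chr12:88722876-90334935, plus strand). Among the neuroligins it was 60.7% for Nlgn2 (chr11:69823122-69837784, minus strand), 49.3% for Nlgn3 (chrX:101299168-101325963, plus strand) and 38.9% for Nlgn1 (chr3:25426215-26332460, minus strand). Among the Lrrtm genes it was 54.7% for Lrrtm1 (chr6:77242689-77257791, plus strand), 44.5% for Lrrtm3 (chr10:63928472-64090277, minus strand), 38.4% for Lrrtm4 (chr6:80018877-80810143, plus strand) and 38.4% for Lrrtm2, whose sequence is not shown. The lines that follow give 60 coding bases of exons, 5′ to 3′ on the coding strand, from the GENCODE M21 transcripts. In each family 1 stretch was taken from the middle of a coding sequence, and the most similar in-frame stretch was taken from its relatives. G and C are in capitals.
Nrxn2: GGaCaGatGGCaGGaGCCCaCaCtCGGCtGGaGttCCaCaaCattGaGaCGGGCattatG
Nrxn3: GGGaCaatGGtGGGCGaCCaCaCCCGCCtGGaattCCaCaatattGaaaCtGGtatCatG
Nlgn2: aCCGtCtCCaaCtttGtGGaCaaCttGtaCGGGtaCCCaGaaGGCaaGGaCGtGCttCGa
Nlgn3: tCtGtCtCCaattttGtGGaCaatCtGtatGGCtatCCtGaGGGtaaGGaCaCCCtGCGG
Nlgn1: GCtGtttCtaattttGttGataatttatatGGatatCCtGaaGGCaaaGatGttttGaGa
Lrrtm1: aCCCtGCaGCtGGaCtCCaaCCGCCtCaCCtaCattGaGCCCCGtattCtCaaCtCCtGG
Lrrtm3: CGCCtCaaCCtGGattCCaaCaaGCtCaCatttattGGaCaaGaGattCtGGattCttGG
Lrrtm4: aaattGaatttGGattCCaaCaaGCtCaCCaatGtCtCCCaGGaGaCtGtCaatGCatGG
The Nrxn2 stretch (bases 2536 to 2595 of the coding sequence) held 34 G or C bases and that of Nrxn3 (2395 to 2454) held 31, with 44 of 60 positions identical. The Nlgn2 stretch (1225 to 1284) held 32, that of Nlgn3 (1285 to 1344) 30 and that of Nlgn1 (1300 to 1359) only 18, although 41 of its 60 positions matched Nlgn2. Lrrtm1 (850 to 909) held 35, Lrrtm3 (844 to 903) held 27 and Lrrtm4 (844 to 903) held 26, with 37 positions of Lrrtm1 and 38 of Lrrtm4 identical to Lrrtm3, from which the Lrrtm stretches were matched.

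In FT DA nuclei the neurexins were the most abundant of the 9 genes per length. The level per kilobase of the longest transcript was 131 ± 23.2 CPM per kb for Nrxn3 and 131 ± 19.4 CPM per kb for Nrxn2 (SD, n = 4), and neither overlapped any other gene of the list. The Lrrtm genes and neuroligins followed at 47.6 ± 16.8 CPM per kb for Lrrtm3, 32.9 ± 3.76 for Lrrtm1, 30.7 ± 5.02 for Lrrtm2, 28.6 ± 8.77 for Nlgn2, 24.6 ± 5.03 for Nlgn1, 16.1 ± 10.9 for Nlgn3 and 15.2 ± 8.17 for Lrrtm4. Each of these 7 overlapped its neighbour in the order. Per kilobase of coding sequence the neurexins stayed first in FT DA, at 221 CPM per kb for Nrxn3 and 169.9 for Nrxn2, but Nlgn1 then came next at 115 CPM per kb. In FT nDA nuclei the order per kilobase of transcript was Nrxn2 (76.9 ± 31.7 CPM per kb), Nrxn3 (60.02 ± 5.86), Lrrtm1 (48.2 ± 12.7), Lrrtm3 (46.8 ± 7.81), Lrrtm4 (21.7 ± 5.89), Nlgn2 (19.8 ± 4.36), Nlgn1 (16.0 ± 2.03), Lrrtm2 (13.6 ± 2.73) and Nlgn3 (8.93 ± 5.13), and the only neighbours that did not overlap there were Lrrtm3 and Lrrtm4.

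**Figure D1:**
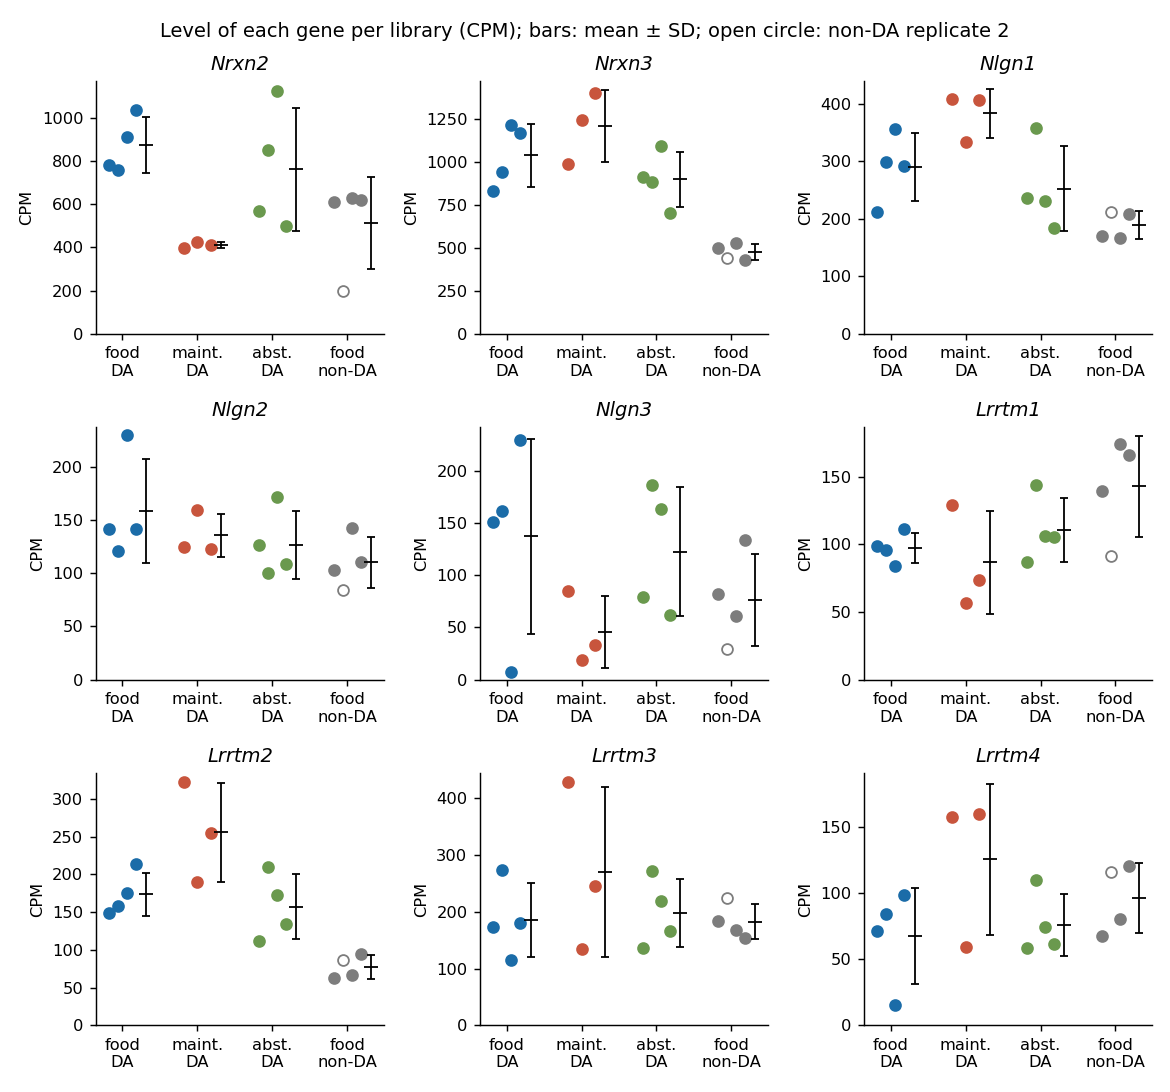
CPM (vertical axes, from 0) of the 9 genes in every library of the 4 groups (horizontal axes: food-trained, maintenance and abstinence DA nuclei, food-trained nDA nuclei). Points are libraries, bars are the mean ± SD, and the open circle is FT nDA replicate 2. All 4 FT DA points of Nrxn3 and of Lrrtm2 lie above all 4 nDA points, and the 3 MN DA points of Nrxn2 lie below all FT DA points.

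The comparison of DA with nDA nuclei in FT mice asks which of these synaptic organisers differ in RNA between the sorted populations. Nrxn3 and Lrrtm2 were higher in DA nuclei, each by a little over 2-fold, and these were the 2 of 9 genes called at an adjusted p under 0.05. Of all 19786 genes tested, 12.8% were called, 3.63% as higher. Without 1 library the share called as higher was 1.81% (nDA replicate 1), 1.95% (nDA replicate 3), 2.13% (nDA replicate 4) and 5.5% (FT DA replicate 3), and 3.08% to 3.46% for the others. Nrxn2 and Nlgn1 were also higher in every DA library than in any nDA library but were not called, and the log2 fold changes of Lrrtm1 and Lrrtm4 were below 0 and that of Lrrtm3 near 0, none of them called. The groups did not overlap for 4 of 9 genes, all higher in DA, against 6.41% of all genes higher without overlap. Unadjusted p-values under 0.05 were found for 4 of 9 (Nrxn3, Nlgn1, Lrrtm1 and Lrrtm2), against 24.3% of all genes. The median log2 fold change of the 9 was 0.63, and that of all genes tested was -0.21. In bulk libraries fewer nuclei of a type and less RNA per nucleus cannot be told apart.

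Among the presynaptic members, Nrxn3 stood at 831, 945, 1219 and 1168 CPM in the 4 FT DA libraries and at 498, 442, 530.2 and 432 CPM in the 4 nDA libraries. The lowest DA library exceeded the highest nDA library. The log2 fold change was 1.14 (SE 0.20, edgeR quasi-likelihood adjusted p = 0.0067), a 2.21-fold difference. Nrxn2 stood at 779.7, 758, 912 and 1036 CPM in FT DA and at 611, 196, 626 and 617 CPM in nDA, where replicate 2 was far below the other 3. Its log2 fold change of 0.78 (SE 0.35) had an edgeR adjusted p of 0.217. Without nDA replicate 2 the log2 fold change was 0.50 (SE 0.19, edgeR adjusted p = 0.159). Of the 17 other settings, only the correction for GC content gave a call of Nrxn2 (log2 fold change 0.99, edgeR adjusted p = 0.0344).

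Within the nDA libraries the 2 neurexins gave unlike pictures. The ratio of Nrxn3 to Nrxn2 counts was 1.07 to 1.34 in FT DA, 0.70 to 0.85 in nDA replicates 1, 3 and 4, and 2.26 in nDA replicate 2.

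Among the postsynaptic members, Lrrtm2 stood at 149.5, 158, 176 and 214 CPM in FT DA and at 62.6, 86.2, 66.1 and 94.6 CPM in nDA, with no overlap. Its log2 fold change was 1.18 (SE 0.21, adjusted p = 0.0067 by edgeR), a 2.27-fold difference. Nrxn3 and Lrrtm2 were called under all 17 other settings run. With the replicate number as a block, which paired these 2 groups, the edgeR adjusted p was 0.0228 for Nrxn3 and 0.0201 for Lrrtm2, and 775 genes were called in place of 2534. Lrrtm1 stood the other way, at 98.5, 95.8, 83.9 and 111 CPM in FT DA and 139, 91.1, 174 and 166 CPM in nDA, and only nDA replicate 2 reached into the DA range. The log2 fold change was -0.54 (SE 0.23, adjusted p = 0.177 by edgeR), and without nDA replicate 2 Lrrtm1 was called as lower in DA (adjusted p = 0.0338 by edgeR). Lrrtm2 made up 25.05% ± 6.42 of the length-scaled Lrrtm RNA in FT DA and 10.4% ± 1.63 in nDA (SD, n = 4 each), ranging from 18.6% to 33.5% and from 8.86% to 11.9%.

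Lrrtm3 was at 173, 274, 116 and 179.7 CPM in FT DA and 183, 225, 167 and 155 CPM in nDA, with a log2 fold change of 0.04 (SE 0.27) whose sign turned under 4 of the other settings. Lrrtm4 was at 71.6, 84.2, 15.7 and 98.4 CPM in FT DA and 67.7, 116, 80.4 and 121 CPM in nDA, with a log2 fold change of -0.50 (SE 0.48). Both genes overlapped between the populations, and FT DA replicate 3 was the lowest of the 8 libraries for each.

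Nlgn1, a neuroligin of excitatory synapses, stood at 213, 299, 357 and 293 CPM in FT DA and 169.9, 212, 167 and 208 CPM in nDA. The groups met without overlapping, with the lowest DA library at 212.5 CPM and the highest nDA library at 211.8 CPM, and the log2 fold change was 0.63 (SE 0.20, adjusted p = 0.0785 by edgeR). DESeq2, which called 19.5% of all genes, called Nlgn1 as well (adjusted p = 0.0134), and so did edgeR without FT DA replicate 1 (adjusted p = 0.0283).

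Nlgn2 stood at 142, 121, 231 and 142 CPM in FT DA and 103, 84.3, 143 and 111 CPM in nDA, with a log2 fold change of 0.54 (SE 0.25) and overlapping groups. Nlgn3 stood at 151, 161, 7.41 and 229 CPM in FT DA and 81.8, 28.95, 60.9 and 133 CPM in nDA, with a log2 fold change of 0.86 (SE 0.80). Nlgn3 was the most variable of the 9 genes within FT DA, with a coefficient of variation of 68.0%: replicate 3 held 205 counts while another library of the group held 10512.

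**Figure D2:**
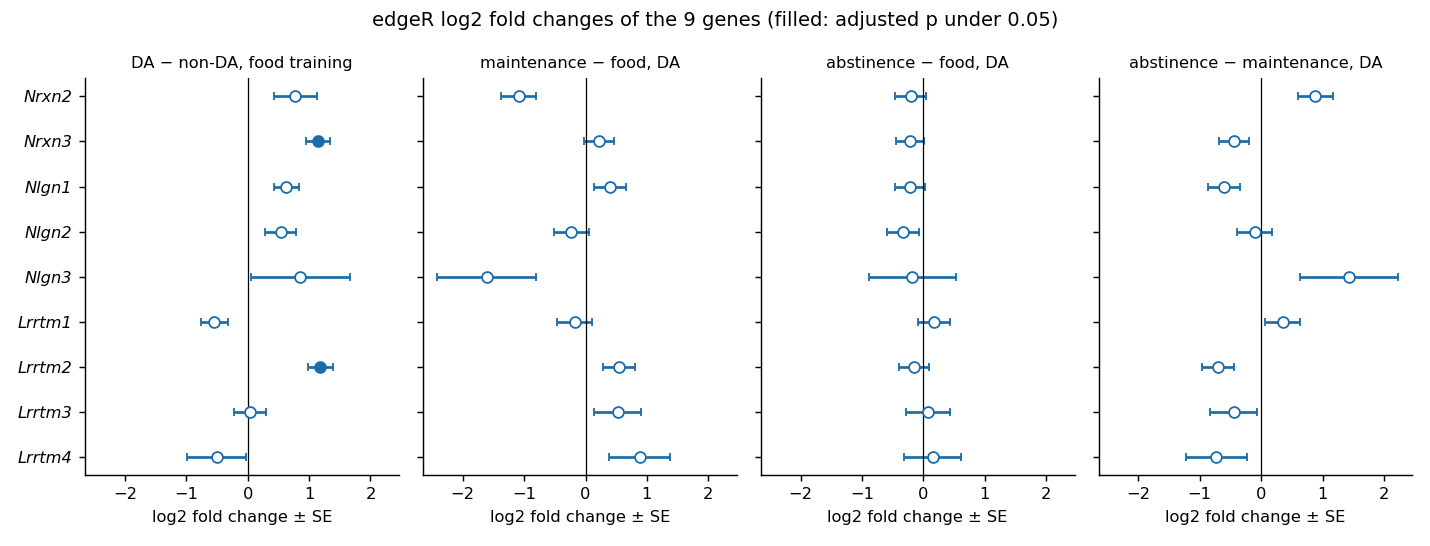
The log2 fold change of each gene (horizontal axes, ± SE) in the 4 pairwise comparisons, from edgeR. Filled circles have an adjusted p under 0.05, which only Nrxn3 and Lrrtm2 reached, in DA against nDA nuclei. The points for abstinence against food training lie between -0.34 and 0.17.

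Marker levels of neurons, glia and vessels differed between FT DA and nDA nuclei, though not for every list or gene. The 5 pan-neuronal markers summed to 3370 to 5015 CPM in FT DA and to 1837 to 2192 CPM in nDA, although Snap25 alone was at 477 ± 57.5 CPM against 429 ± 105 CPM and Rbfox3 at 44.9 ± 14.5 CPM against 102 ± 7.12 CPM. Glial lists were higher in nDA: 6 astrocyte markers summed to 1473 to 3032 CPM there and to 729.7 to 930.6 CPM in FT DA, and 6 microglia markers to 837 to 1231 CPM and 244 to 399 CPM. The remaining lists were also lower or overlapped in FT DA: 4 oligodendrocyte precursor markers summed to 15.9 to 48.6 CPM there and 178 to 264 CPM in nDA, 5 vascular markers to 0 to 73.1 and 219 to 407 CPM, 3 GABA neuron markers to 161 to 220.2 and 192 to 262 CPM, and 3 glutamate neuron markers to 167 to 666 and 386 to 650.3 CPM. The part that the mix of cells had in the differences of Nrxn3 and Lrrtm2 was not tested.

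Of the Lrrtm genes, 3 of 4 lie inside alpha-catenin genes on the opposite strand: Lrrtm1 in Ctnna2, Lrrtm2 in Ctnna1 and Lrrtm3 in Ctnna3. Whether counting used strand is not given in the sources used here, so reads of Lrrtm2 and Ctnna1 may have been shared. Ctnna1 was at 85.5 ± 50.9 CPM in FT DA and 48.9 ± 14.0 CPM in nDA (SD, n = 4 each), a log2 fold change of 0.82 (SE 0.45, adjusted p = 0.319 by edgeR), and 95 of the 6022 exonic bases of Lrrtm2 fall within Ctnna1 exons. No exonic base of Lrrtm1 or Lrrtm3 falls within exons of its host. All exonic bases of these genes (3033 of Lrrtm1, 6022 of Lrrtm2, 4251 of Lrrtm3) lie within the span of the host. If counting ignored strand, reads from unspliced host RNA could therefore fall on any of them. Ctnna2 stayed between 34.8 and 56.5 CPM in all 15 libraries, and Ctnna3 between 0 and 12.7 CPM. Nlgn1 shares 1229 exonic bases with the antisense A830092H15Rik, which was at 2.08 to 25.2 CPM in the 15 libraries, and Nrxn2 shares 682 with Slc22a12, which had at most 59 counts in any library. The widest overlap was that of Nlgn3, which shares 3823 of its 9271 exonic bases with Gm21986, a transcript of the same strand, so that counting by strand could not tell their reads apart. Lrrtm4 shares 1543 exonic bases with Gm4409, Nrxn3 shares 439 with Gm37980 and Nrxn2 shares 207 with Gm14964, each on the opposite strand. Counts of these 4 genes were not analysed here, and the part of shared reads in the values of the members was not tested.

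Among other partners of these genes, the share called in either direction was near that of all genes, at 12 of 81 tested, or 14.8%, against 12.8%. By direction, 8 of the 81 were called as higher in DA, against 3.63% of all genes, and 4 as lower, against 9.17%. Of 16 neurexin ligands tested beside the 9 genes, 2 were called as higher in DA and 1 as lower. Cbln4, a secreted cerebellin that links neurexins to postsynaptic receptors, was at 166 ± 41.4 CPM in FT DA and 60.8 ± 7.53 CPM in nDA (log2 fold change 1.46, SE 0.23, adjusted p = 0.0067 by edgeR). Igsf21, a neurexin ligand of inhibitory synapses, was at 138 ± 27.3 and 60.4 ± 22.0 CPM (log2 fold change 1.20, SE 0.31, adjusted p = 0.0334 by edgeR). Nxph2, a neurexophilin, had 0 counts in all 4 FT DA libraries, where 3 counts would be at most 0.108 CPM, and was at 0.793 to 1.92 CPM in nDA. With the replicate block only Cbln4 of these 3 was still called. Igsf21 was also not called with limma-voom, without the filter on low counts, with the term shared by 4 libraries, or without any one of FT DA replicates 2 and 4 and nDA replicates 1 and 3, and Nxph2 was not called in either fit of all 15 libraries. Without FT DA replicate 3 the ligands called were 7 of 17, in a fit that called 18% of all genes.

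Clstn2, a calsyntenin, was the 1 called of 8 partners and inhibitors of the postsynaptic members, at 297 ± 57.5 CPM in FT DA and 113 ± 26.1 CPM in nDA (log2 fold change 1.41). Of 19 scaffold genes, which anchor these proteins inside the cell, 2 were called and both were lower in DA: Dlgap1 (log2 fold change -1.45, SE 0.23) and Dlg2 (log2 fold change -1.03, SE 0.22). None of the 3 RNA-binding proteins that control neurexin splicing was called by edgeR, DESeq2 or limma-voom, and none had an unadjusted p under 0.05. The lowest edgeR adjusted p among them was 0.223, for Khdrbs2.

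A further 2 adhesion systems of the synapse were set beside these. Of 22 genes of the receptor tyrosine phosphatase system, Slitrk4 (log2 fold change 1.82, SE 0.28) and Slitrk5 (1.23, SE 0.30) were higher in DA and the phosphatase Ptprd was lower (log2 fold change -1.06, SE 0.21). Of 13 latrophilin, teneurin, Flrt and SynCAM genes, Tenm1 (log2 fold change 1.51, SE 0.22), Flrt3 (1.73, SE 0.31) and Cadm2 (1.05, SE 0.21) were called by edgeR, all higher in DA. DESeq2 called 6 of these 13, of which Adgrl2 was lower, and edgeR also called Adgrl2 as lower without FT DA replicate 4. The median log2 fold changes of the 6 lists, in the order given, were 0.43, -0.40, -0.08, -0.125, 0.31 and 0.16, beside -0.21 for all genes. With the replicate block the count called over all 6 lists was 9 of 81, or 11.1% against 3.92% of all genes, and Slitrk5, Igsf21 and Nxph2 were the 3 no longer called. Without FT DA replicate 3 it was 18 of 82, or 22% against 18% of all genes, and by DESeq2 it was 21 of 81, or 25.9% against 19.5%. Slitrk5 was also not called without nDA replicate 1 or without nDA replicate 3.

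The 3 stages of DA nuclei ask whether these genes follow cocaine intake and abstinence. No member was called by edgeR at any stage. In MN against FT, 0.131% of 19060 genes were called, 11.6% had an unadjusted p under 0.05, and 1 of the 9 genes (Nrxn2) was among the latter. DESeq2 called Nrxn2 alone of the 9 in that comparison, and 5.13% of all genes. Limma-voom called no member.

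Nrxn2 had the lowest p of the 9 genes in MN against FT. It stood at 779.7, 758, 912 and 1036 CPM in FT, 395, 426 and 411 CPM in MN and 567, 852, 1122 and 501 CPM in CRV. All 3 MN libraries were below every FT and every CRV library. Groups that did not overlap, with MN the lower, made up 4.14% of all genes against FT. The log2 fold change of MN against FT was -1.09 (SE 0.29, unadjusted p = 0.00215 and adjusted p = 0.185 by edgeR), with a DESeq2 adjusted p of 0.000987.

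Of 51 marker genes of 9 cell type lists, edgeR and limma-voom called 0 in MN against FT, where DESeq2 called 4 and 10, or 19.6%, had an edgeR unadjusted p under 0.05, against 11.6% of all genes. The 5 pan-neuronal markers summed to 4478 to 5775 CPM in MN and 2772 to 4403 CPM in CRV, beside 3370 to 5015 CPM in FT, and the 8 oligodendrocyte markers to 1133 to 1767 and 1116 to 1991 CPM, beside 1744 to 2765 CPM. Among the latter Mbp, a myelin protein, was at 263.5 ± 87.9 CPM in MN (SD, n = 3), 617 ± 385 CPM in CRV and 1050 ± 259.9 CPM in FT (n = 4 each). The 3 GABA neuron markers summed to 159 to 350.4 CPM in MN (median 320.5), 196 to 413 CPM in CRV and 161 to 220.2 CPM in FT (median 198), and the 6 microglia markers to 128 to 321, 208 to 366 and 244 to 399 CPM. The 10 markers with an unadjusted p under 0.05 were 3 of 8 oligodendrocyte, 2 of 3 GABA neuron, 2 of 6 microglia, 1 of 5 pan-neuronal, 1 of 6 astrocyte and 1 of 11 dopamine neuron markers, and none of the 3 glutamate neuron, 4 oligodendrocyte precursor and 5 vascular markers. The summed levels of all 9 marker lists overlapped between MN and FT. Their part in the stage values was not tested.

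The difference of Nrxn2 was smaller after a correction for GC content. All 3 MN libraries had low GC slopes, so the correction raises genes of high GC content in them by construction. It cannot tell slope from stage. With it, the log2 fold change of Nrxn2 in MN against FT was -0.63 (SE 0.25, unadjusted p = 0.0264 and adjusted p = 0.423 by edgeR). With a term shared by the 3 MN libraries and nDA replicate 2, which only that nDA library separates from stage, the log2 fold change was 0.55 (SE 0.47), of opposite sign. FT nDA replicate 2 held 196 CPM of Nrxn2, below the 3 MN libraries, while the other 3 nDA libraries held 611 to 626 CPM.

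Nrxn3 did not follow Nrxn2. It stood at 831, 945, 1219 and 1168 CPM in FT, 989.5, 1244 and 1406 CPM in MN and 914, 882, 1096 and 706 CPM in CRV, and all 3 stages overlapped. Its log2 fold change was 0.22 (SE 0.25) for MN against FT. The ratio of Nrxn3 to Nrxn2 counts was 2.502 to 3.42 in MN, 1.07 to 1.34 in FT and 0.976 to 1.61 in CRV, so that within the neurexin pair the Nrxn2 share of length-scaled RNA was 29.0% ± 3.21 in MN (SD, n = 3), 50.0% ± 2.53 in FT (n = 4) and 42.4% to 54.9% over the 4 CRV libraries.

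**Figure D3:**
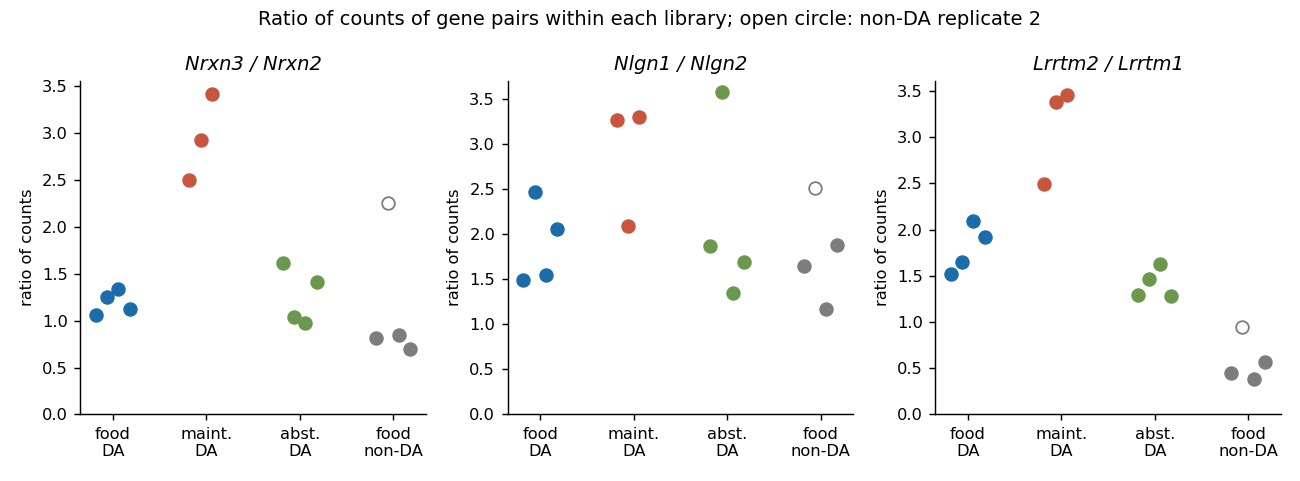
Ratio of counts (vertical axes, from 0) of 3 gene pairs within each library, for the 4 groups; points are libraries and the open circle is FT nDA replicate 2. The Nrxn3 to Nrxn2 ratio is at least 2.502 in all 3 MN DA libraries and 2.26 in FT nDA replicate 2, and at most 1.61 in every other library.

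The neuroligins did not move together in the same comparison. Nlgn1 was at 409.5, 334 and 408 CPM in MN, with a log2 fold change of 0.40 (SE 0.26) against FT. Nlgn2 was at 125, 159 and 123 CPM in MN (log2 fold change -0.23, SE 0.28), and Nlgn3 at 84.4, 18.7 and 32.9 CPM (log2 fold change -1.61, SE 0.81). All 3 overlapped with FT. For Nlgn3 the overlap came from FT replicate 3, at 7.41 CPM, below every MN library. The log2 fold change of Nlgn3 ran from -2.41 to 0.0414 over the 20 other settings.

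For the Lrrtm genes the MN libraries were at 129, 56.4 and 73.96 CPM for Lrrtm1, 322, 191 and 255 CPM for Lrrtm2, 429, 134 and 246 CPM for Lrrtm3 and 157, 59.4 and 159.6 CPM for Lrrtm4. The log2 fold changes against FT were -0.18 (SE 0.29), 0.55 (SE 0.26), 0.53 (SE 0.38) and 0.89 (SE 0.50), in that order, and all 4 genes overlapped with FT. MN replicate 2 was the lowest of its group for all 4. The ratio of Lrrtm2 to Lrrtm1 counts was 2.49 to 3.45 in MN and 1.52 to 2.09 in FT.

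Set in order of GC content, the 4 genes above 48% G and C (Nrxn2, Nlgn2, Lrrtm1, Nlgn3) had negative log2 fold changes in MN against FT, a division chosen after the values were seen, and the 5 below it (Nrxn3, Lrrtm3, Nlgn1, Lrrtm2, Lrrtm4) had positive ones. In FT nDA replicate 2 the same 4 genes lay below the range of the other 3 nDA libraries and the same 5 lay inside or above it. Across the 9 genes Spearman's rho between GC content and the log2 difference was -0.883 for MN against FT, -0.767 for nDA replicate 2 against the rest, and -0.350 for CRV against FT. Across all genes with a known GC content the same values were -0.219, -0.417 and 0.0261, over 16624 genes (17195 for the nDA libraries), and genes are not independent replicates. With the correction for GC content, the MN against FT log2 fold changes of Nlgn2 (0.15) and Lrrtm1 (0.02) changed sign. That of Nlgn1 was 0.01, while that of Nlgn3 was -1.62. With the term shared by the MN libraries and nDA replicate 2, the 4 negative values all changed sign. They were 0.55 for Nrxn2, 0.25 for Nlgn2, 0.61 for Lrrtm1 and 0.0414 for Nlgn3.

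**Figure D4:**
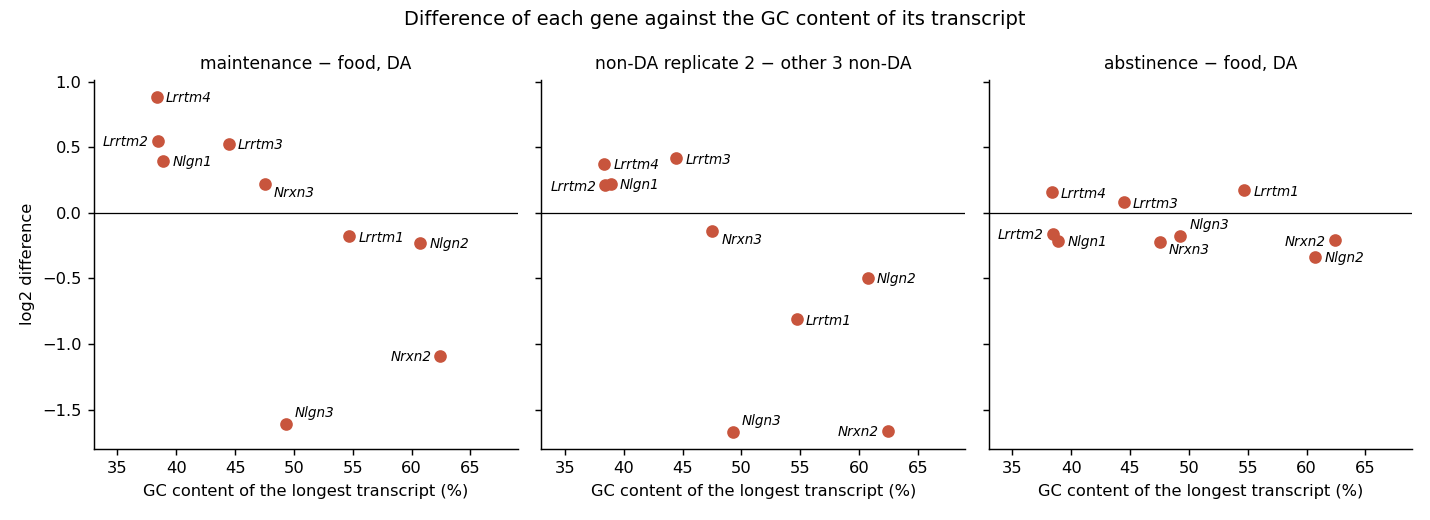
Log2 difference of each of the 9 genes (vertical axes) against the GC content of its longest transcript in percent (horizontal axes), for MN against FT DA nuclei, for FT nDA replicate 2 against the mean of the other 3 nDA libraries, and for CRV against FT DA nuclei. In the first and second panels Nrxn2 and Nlgn3 are lowest, and Lrrtm4 and Lrrtm3 are above 0. In the third all points lie within -0.34 and 0.17.

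After abstinence the 9 genes stood close to their FT levels. No member was called in CRV against FT by edgeR, DESeq2 or limma-voom, none had an unadjusted p under 0.05 against 4.3% of all genes, and edgeR called 0% of all genes while DESeq2 called 0.735%. All 9 genes overlapped between the 2 groups, while 2.4% of all genes were higher and 0.944% lower without overlap. The log2 fold changes ran from -0.34 (SE 0.26) for Nlgn2 to 0.17 (SE 0.27) for Lrrtm1, and the standard errors, up to 0.71 for Nlgn3, leave room for differences of that order. CRV values were 237, 358, 232 and 184 CPM for Nlgn1, 127, 99.9, 172 and 109 CPM for Nlgn2 and 78.9, 186, 164 and 61.6 CPM for Nlgn3. They were 87.02, 144, 106 and 105 CPM for Lrrtm1 and 112, 209.7, 173 and 134 CPM for Lrrtm2. CRV replicate 2 was the highest of its group for Nlgn1, Nlgn3, Lrrtm1 and Lrrtm2 and the lowest for Nlgn2. Lrrtm3 was at 136, 272, 219.7 and 165 CPM and Lrrtm4 at 58.3, 109.5, 73.97 and 61.6 CPM, with CRV replicate 2 again the highest for both.

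CRV was also set against MN, a comparison that shares its MN libraries with the one above. No member was called by edgeR or limma-voom, DESeq2 called Nrxn2 alone (adjusted p = 0.0306) of the 9 and 4.16% of all genes, and edgeR called 0.178% of all genes. An unadjusted p under 0.05 was reached by 3 of 9 genes, against 9.92% of all genes. Nrxn2 was higher in every CRV library than in any MN library (log2 fold change 0.88, SE 0.29, adjusted p = 0.355 by edgeR), as were 7.68% of all genes. The other 2 were lower in CRV, with overlap: Lrrtm2 (log2 fold change -0.71, SE 0.26) and Nlgn1 (log2 fold change -0.61, SE 0.26). With the correction for GC content the log2 fold changes were 0.35 for Nrxn2, -0.24 for Lrrtm2 and -0.18 for Nlgn1. With the term shared by 4 libraries that of Nrxn2 was -0.76, of opposite sign. Tested for a difference anywhere among the 3 stages, no member was called by edgeR, which called 0.0839% of all genes. An unadjusted p under 0.05 was reached by 2 of the 9 (Nrxn2 and Lrrtm2), against 7.85% of all genes, and DESeq2 called 1 of the 9, Nrxn2, against 1.78%.

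Of the 81 partner genes of the 6 lists, edgeR and limma-voom called 0 in MN against FT, where 15, or 18.5%, had an edgeR unadjusted p under 0.05, against 11.6% of all genes. In CRV against MN edgeR called 1, or 1.23%, against 0.178% of all genes, and 16, or 19.8%, had an unadjusted p under 0.05, against 9.92% of all genes. Cadm4, a SynCAM adhesion protein, was at 37.2 ± 2.92 CPM in MN (SD, n = 3), 107 ± 24.5 CPM in CRV and 102 ± 16.9 CPM in FT (n = 4 each), with a log2 fold change of 1.53 (SE 0.27, adjusted p = 0.0434 by edgeR) for CRV against MN and -1.45 (SE 0.27, adjusted p = 0.0626) for MN against FT. Cadm4 followed the pattern of Nrxn2 in the nDA libraries too, at 39.9 CPM in replicate 2 and 113 to 175 CPM in the others. In CRV against MN the Cadm4 call was lost with upper quartile scaling, limma-voom, the replicate block, all 15 libraries in one fit and the correction for GC content, where its log2 fold change was 1.12 to 1.53, and with the term shared by 4 libraries, where it was -0.28. Without FT replicate 3, edgeR also called Cadm4 in MN against FT, and without MN replicate 2 it called Igsf9b, a partner of inhibitory synapses, in place of Cadm4. Leaving out single libraries removed the Cadm4 call in 8 of 11 cases. Among neurexin ligands without a call, Clstn3 was at 723 ± 286 CPM in MN and 2016 ± 772 CPM in FT (log2 fold change -1.49, adjusted p = 0.290 by edgeR), and C1ql2 at 32.3 ± 27.1 and 141 ± 93.2 CPM (log2 fold change -2.13, adjusted p = 0.292 by edgeR). DESeq2 called 6 of 81 partner genes in MN against FT, all lower (C1ql2, Cadm4, Clstn3, Dlg4, Igsf9b and Ptprs), or 7.41%, where it called 5.13% of all genes and 3.89% as lower. In CRV against MN it called 4, all higher (C1ql2, Cadm4, Clstn3 and Ptprs), or 4.94%, where it called 4.16% of all genes and 3.55% as higher. In CRV against FT, edgeR, DESeq2 and limma-voom called no partner gene, and 2 of 81 (Nxph2 and Dlg1) had an edgeR unadjusted p under 0.05.

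Across the 15 libraries the members did not move as a single block. Pearson's r of log2 CPM was highest between Nlgn1 and Lrrtm2 (0.884), Nrxn3 and Lrrtm2 (0.838), Nrxn3 and Nlgn1 (0.774), and Lrrtm3 and Lrrtm4 (0.715). Over the 11 DA libraries alone these were 0.805, 0.511, 0.669 and 0.793. The lowest was between Nlgn2 and Lrrtm4 (-0.672). Nrxn2 and Nrxn3 had an r of 0.341 over all libraries and -0.0386 over the DA libraries. These values describe libraries that share groups, depth and composition and carry no test.

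The other genes with a mean of at least 5 CPM were compared with each member, 11652 or 11653 of them. The gene most like Nrxn3 over the 15 libraries was Dlk1 (r = 0.976). That most like Lrrtm2 was Flrt3 (0.962), and the next gene was as close (0.961). Lrrtm2 and Flrt3 were both called as higher in DA nuclei, a difference that enters their r. The closest genes were Tmem198 for Nrxn2 (0.937), Tmem127 for Nlgn3 (0.937), Tmem175 for Lrrtm3 (0.931), Tmem135 for Lrrtm4 (0.920) and Glra2, a glycine receptor subunit, for Nlgn1 (0.915). They were Tcirg1 for Lrrtm1 (0.868) and Adgrl1, a latrophilin, for Nlgn2 (0.828).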

How the data were processed

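Nuclear RNA was sequenced in 15 libraries. Per the submitters' processing notes, reads were handled with Trim Galore 0.6.7, cutadapt 1.18, STAR 2.7.10a, StringTie 2.1.5 and DESeq2 1.38.3 and the builds mm10 and GRCm38. The authors deposited a table of counts per gene (35976 rows), not normalized, which was used here. A second table named as normalized holds values identical to these counts for 10 libraries and was not used. The annotation and use of strand are not given in the sources used here.

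CPM were computed with edgeR 4.0.16 and TMM factors. Genes were filtered with filterByExpr and tested with the quasi-likelihood test of edgeR, with p-values adjusted after Benjamini and Hochberg over all genes tested, in one fit of FT DA and FT nDA (n = 4 each) and one of the 3 DA stages; a gene was called at an adjusted p under 0.05. The fitting code was tested on simulated data with no change or with changes larger than those of the members. That test does not show how well changes of the size seen here are detected. Labels do not say that the libraries are separate cohorts, so p-values measure the spread between these samples, which may be partly technical. Lengths, GC content and overlaps came from GENCODE M21 (GRCm38). The correction for GC content fitted log2 CPM to the GC content of transcripts in each library and entered the fitted line as an offset.

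Same-numbered FT DA and FT nDA libraries deviated together, with r from 0.116 to 0.262 in 4 of 4 pairs. The unlike-numbered FT DA replicate 4 and FT nDA replicate 1 had an r of 0.146, within that range. The labels do not state a pairing. The main fit of these groups therefore had no pairing term, and the replicate block, which pairs them by number, was run as an alternative.

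Alternatives were DESeq2 size factors, upper quartile scaling, no filter, DESeq2 1.42.0, limma-voom (limma 3.58.1) with sample quality weights, a replicate block, GC correction, all 15 libraries, a term shared by 4 libraries of low GC slope, and each replicate left out. The members, the 6 partner lists and the markers were chosen with earlier results of these data known. Genes named are all members, those overlapping genes that hold a member or share exonic bases with one, the most alike gene of each member, and from each list up to 3 called genes per direction with the lowest p, or, where none was called, examples from the 2 with the lowest unadjusted p. The genes listed as called by DESeq2, and the settings picked out beside a gene, were chosen after their values were seen.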

Additional observations from a re-analysis of the deposited data

Results flagged for a closer look

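Nrxn2 in the food-trained nDA group stood apart in 1 library. Replicate 2 was at 196 CPM, and the other 3 libraries were at 611, 626 and 617 CPM, a gap that exceeded Dixon's 95% critical value for 4 samples. This was the only one of 27 sets of a gene and a group that stood apart in this way, and chance gives about 1 in 20 such sets. The same library had a low slope of level on GC content (-0.0248 log2 CPM per percent), and the part of that slope in the value of Nrxn2 was not tested.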

How the results depend on the processing

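The calls of Nrxn3 and Lrrtm2 in DA against nDA nuclei held in all 17 other settings. Of 693 log2 fold changes of members under other settings, 662 kept their direction and side of the threshold, 6 gained a call and 25 changed sign; the cause was not tested. Counts of genes called moved more. DA against nDA nuclei gave 3868 with DESeq2, 4266 with limma-voom, 775 with the replicate block and 965 with the shared term. MN against FT gave 977, 9, 0 and 0, and 5 to 78 with 1 replicate left out. CRV against FT gave 140 with DESeq2. CRV against MN gave 793 with DESeq2, 22 with upper quartile scaling, 2 with the replicate block, 15 with all 15 libraries, 1 with the shared term, and 6 to 73 with 1 replicate left out. Any difference among stages gave 340 with DESeq2, 0 with the block, 9 with GC correction, 9 with all 15 libraries, 0 with the shared term, and 1 to 23 with 1 replicate left out. DESeq2 called 1 member in each of MN against FT, CRV against MN and any difference. The stage groups shared replicate numbers that did not pair them (r from -0.351 to 0.11), and the block called no member there.

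Log2 fold changes that changed sign were these. In DA against nDA, Lrrtm3 gave -0.0156 with the replicate block, -0.0153 with GC correction, and -0.22 to 0.232 with 1 replicate left out (below 0 without FT DA 2 or nDA 4). In MN against FT, the shared term gave 0.55 for Nrxn2, 0.25 for Nlgn2, 0.0414 for Nlgn3 and 0.61 for Lrrtm1, and GC correction gave 0.15 for Nlgn2 and 0.0183 for Lrrtm1. There, with 1 replicate left out, Nlgn2 gave -0.397 to 0.0088 (highest without FT DA 3) and Lrrtm1 -0.577 to 0.0203 (highest without MN DA 2). In CRV against FT, Nlgn3 gave 0.00262 with limma-voom, 0.14 with the block, and -0.574 to 0.176 with 1 replicate left out (above 0 without FT DA 4 or CRV DA 4). Lrrtm3 gave -0.0983 to 0.331 and Lrrtm4 -0.171 to 0.387 there, both below 0 without FT DA 3 or CRV DA 2. In CRV against MN, the shared term gave -0.76 for Nrxn2, -0.22 for Nlgn3 and -0.44 for Lrrtm1, and 1 replicate left out gave -0.286 to 0.0566 for Nlgn2 (highest without MN DA 2) and -0.74 to 0.0524 for Lrrtm3 (highest without MN DA 1). Levels per kilobase moved by more than 1 SD in 69 of 72 cases with another length, and shares in 8 of 36. With 3 or 4 libraries a group, the spread of Nlgn3 (SE up to 0.81) limits what could be detected.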
